A study of Homo sapiens with 6 samples.

Results

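The genes described here are 47 components of epithelial cell junctions, cell polarity and intermediate filaments, taken by name from a fixed list of cadherin, nectin, catenin, desmosome, tight junction, polarity, gap junction, keratin, vimentin and lamin genes. All 47 were found by Ensembl identifier among the 23406 features of the deposited tables, and 41 had enough counts to be tested. They were measured by mRNA sequencing in Hep-3B (Hep3B), a human hepatocellular carcinoma line that the labels call epithelial. In 3 libraries the cells carried a control hairpin (shControl, genotype given as WT) and in 3 an shRNA against NXN (shNXN, genotype given as NXN knockdown), with 1 library of each group on days 7, 9 and 11. NXN encodes nucleoredoxin, a thioredoxin-like protein. Cells of both groups had been transduced with lentivirus and selected in puromycin, which both groups therefore share. The labels do not say which hairpin sequence was used, whether libraries came from separate cultures, or whether cells were cloned. A p-value between groups therefore measures the spread among 3 days of 1 line. Where libraries are paired by day, it measures the spread of the daily differences between groups. In the tests of day it measures the spread left around the fitted change. Fewer cells of a kind cannot be told apart from less RNA per cell.

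Epithelial cells hold together through adherens junctions, in which cadherins and nectins bind their counterparts on the next cell and catenins and afadin tie them to actin. Tight junctions, built from occludin, claudins and the JAM proteins on a plaque of ZO proteins and cingulin, seal the space between cells, and in liver they close the bile canaliculus. Desmosomes anchor keratin filaments at the membrane, polarity complexes place the junctions along the apical side, and connexins form gap junctions. Hepatocytes are known for a simple keratin pair, KRT8 and KRT18, and for the connexin GJB1. Vimentin and N-cadherin are the usual mesenchymal counterparts in an epithelial-mesenchymal transition, and the Snail, ZEB and Twist proteins repress CDH1 through E-boxes such as CAGGTG.

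E-boxes of the form CAGGTG were looked for, on both strands, in the 250 bases before each RefSeq transcription start (GRCh38.p14), because the study concerns Snail, which binds them. An entry existed for 31 of the 47 genes. CDH1 and KRT18 were among the 16 without one. The letters were found before 13 of 50 starts of these genes (26%), against 17.5% of 35116 starts over all genes. Counted by gene, at any start, 12 of the 31 held it (38.7%), against 20.6% of the 27305 genes with an entry. Of the 9 genes that passed a test between groups, 8 had an entry and 4 held the motif. These are shown as 30-base windows on the strand named, with the E-box in capitals; a match describes the letters and not a bound site. In GENCODE 29 both OCLN windows fall in untranslated exons of longer OCLN transcripts and within the antisense gene AC145146.1, the LMNA window in an exon of a noncoding LMNA transcript, the DSC2 window in an intron of the antisense gene DSCAS, and the TJP1 window in no gene.
OCLN at chr5:69492502-69492531 on the + strand, 33 bases before the start: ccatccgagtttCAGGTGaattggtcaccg
OCLN at chr5:69492645-69492674 on the + strand, 133 bases before another start: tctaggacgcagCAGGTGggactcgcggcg
DSC2 at chr18:31102560-31102589 on the - strand, 156 bases before the start: tcaactttctgtCAGGTGggcctcaggcag
LMNA at chr1:156106691-156106720 on the + strand, 13 bases before the start: aacaccttccccCAGGTGgtgaggggccaa
TJP1 at chr15:29969120-29969149 on the - strand, 88 bases before the start: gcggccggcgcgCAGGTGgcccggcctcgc

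The libraries held 15349382 to 16332589 counts. NXN itself, the check of the labels, stood at 181, 138 and 143 CPM (counts scaled to a common library size by TMM) on days 7, 9 and 11 in shControl and at 42.7, 47.5 and 39.5 CPM in shNXN, a log2 fold change of -1.83 (SE, the standard error, 0.16). Its p, from the quasi-likelihood test of edgeR and adjusted by Benjamini-Hochberg over all 14071 features tested, was 0.0378. All 8 hepatocyte markers looked for were detected, and their summed level ranged from 11332 to 21625 CPM in shControl and from 4975 to 12763 CPM in shNXN. ALB, the main plasma protein of hepatocytes, stood at 9566, 13655 and 6955 CPM in shControl and 1420, 683 and 7250 CPM in shNXN. Of the 8 markers 5 had a negative and 3 a positive log2 fold change. With the replicate number as a block, 1 of the 8 passed as higher and 0 as lower by edgeR (6.28% and 17% over all features). The 4 endothelial markers in the table (KDR, CDH5, VWF and TEK) summed to at most 0.0615 CPM in a library, 5 of 7 fibroblast markers were below 1 CPM in every library (their sum 4.92 to 7.24 CPM in shControl and 6.68 to 8.76 CPM in shNXN), and 5 leukocyte markers summed to 62.0 to 77.4 CPM in shControl and 91.2 to 106 CPM in shNXN. CD68 and CD14 carried that sum, since PTPRC, CD3E and MS4A1 were below 1 CPM in every library. The 4 epithelial markers (EPCAM, CDH1, KRT8 and KRT18) were all detected and summed to 2991 to 6981 CPM in shControl and 3698 to 6191 CPM in shNXN. What part these differences had in the values below was not tested.

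Levels per transcript length (FPKM) showed which junction genes these cells used. Simple keratins led: averaged over the 6 libraries KRT8 stood at 1869, KRT18 at 897 and KRT19 at 481 FPKM. Vimentin, at 449 FPKM, was more abundant per length than E-cadherin (CDH1), at 96.1 FPKM. N-cadherin (CDH2) averaged 7.33 FPKM and the kidney and mesenchyme cadherin CDH6 16.8 FPKM. Among tight junction strand genes CLDN1 led at 132 FPKM, with the JAM-A gene F11R at 70.8 FPKM and OCLN at 32.0 FPKM. JUP (plakoglobin) led the desmosome genes at 310 FPKM, CTNNA1 (alpha-catenin) the adherens plaque at 205 FPKM, and LMNA the lamins at 270 FPKM. The 6 untested genes, CDH3, CDH17, CLDN3, CLDN6, CLDN7 and CLDN14, had at most 12 counts in any library, and CDH3 had none. A count of 0 allows up to 3 counts, or 0.195 CPM in the library with the fewest counts, for counting error only. CLDN14 and CDH17 were at 0.735 and 0.669 CPM at most.

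**Figure D1:**
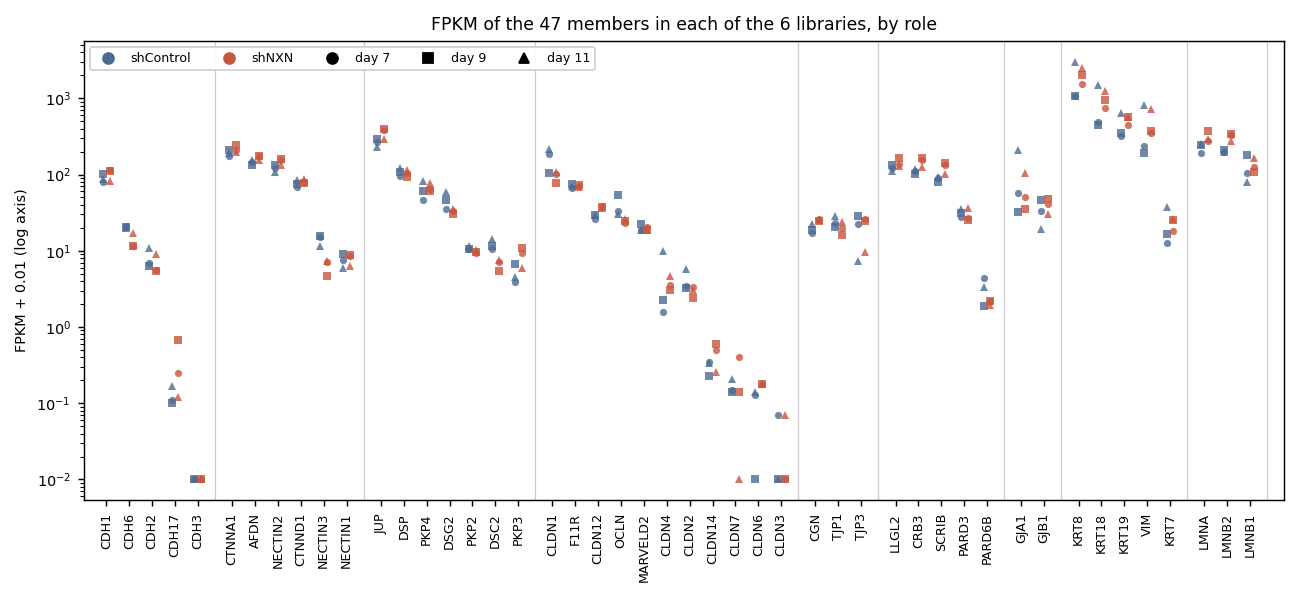
FPKM + 0.01 (log axis) of the 47 genes in each library, grouped by role from cadherins at the left to lamins at the right, with shControl in blue, shNXN in red, and circles, squares and triangles for days 7, 9 and 11. Keratins 8 and 18 stand highest, while the 6 untested genes lie at the foot of the plot with at most 12 counts in a library.

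In the comparison of shNXN with shControl, 3 of the 41 tested genes passed an adjusted p of 0.05: OCLN and CLDN12, both of the tight junction strand, were lower in shNXN, and LMNB2, which encodes lamin B2 of the nuclear lamina, was higher. Over all features 3.39% passed (3.21% lower and 0.185% higher). With the replicate number, which marks the day in the labels, as a block, 9 of 41 passed, 7 lower and 2 higher, against a background of 23.3% (17% lower, 6.28% higher). The 22% of the listed genes is thus near the share over all features. DESeq2's Wald test called 6 of 46 genes (OCLN, CLDN12, NECTIN3, DSC2 and CLDN1 lower, LMNB2 higher), against 16% of features. Groups without overlap, in which all shNXN libraries lay below all shControl libraries, were found for 6 genes against 21.5% of features, and the opposite order for 6 against 19% of features. The median log2 fold change was -0.04 over the 41 genes and 0.03 over all features.

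OCLN encodes occludin, a membrane protein of the tight junction strand (GENCODE 29 places it at chr5:69492292-69558104 in GRCh38). It stood at 85.6, 80.7 and 81.0 CPM on days 7, 9 and 11 in shControl and at 45.5, 50.1 and 47.5 CPM in shNXN. The groups did not overlap, and days differed little within either group. The log2 fold change was -0.79 (SE 0.13, edgeR adjusted p = 0.0452; 0.0184 with the block). On the FPKM scale OCLN was 33.4, 54.5 and 30.4 against 23.4, 24.4 and 25.8, where limma gave an adjusted p of 0.129. After GC correction OCLN was at 0.21 (edgeR adjusted p = 0.74) and with the block as well at 0.17 (0.582), and of the 6 fits without 1 library the call held only without shNXN of day 11 (adjusted p 0.00935 to 0.225 over the 6).

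CLDN12 encodes claudin 12, a claudin without the usual PDZ-binding end (chr7:90383721-90513402). Its level was 65.2, 59.9 and 87.2 CPM in shControl and 35.4, 32.1 and 30.9 CPM in shNXN. Every shNXN library lay below every shControl library, with a log2 fold change of -1.11 (SE 0.19, edgeR adjusted p = 0.0452; 0.0201 with the block). The deposited FPKM values of CLDN12 ran the other way, at 26.0, 29.1 and 29.6 in shControl and 38.3, 37.9 and 35.8 in shNXN. The length implied by count over FPKM was 2498 bases in shControl and 880 bases in shNXN on average, so the direction for CLDN12 held for counts and turned on the length-scaled values (limma on log2(FPKM + 1), difference 0.40, adjusted p = 0.121). After GC correction CLDN12 was at 0.11 (edgeR adjusted p = 0.894), and of the fits without 1 library its call held only without shNXN of day 11.

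CLDN1, the most abundant claudin here and a core sealing claudin of liver, stood at 568, 335 and 674 CPM in shControl and at 280, 228 and 350 CPM in shNXN. The ranges met only between shControl on day 9 and shNXN on day 11. Its log2 fold change of -0.88 had an SE of 0.28 and an edgeR adjusted p of 0.0907, which became 0.0188 with the block. All 7 tested strand genes had a negative log2 fold change in the fit without the block, with a median of -0.53, but 4 of them passed neither fit. These were F11R (-0.20), MARVELD2 or tricellulin (-0.06), the cation-pore claudin CLDN2 (-0.53) and CLDN4 (-0.29). The direction of CLDN4 turned with the block (0.11) and with days 7 and 9 alone (0.76), and after GC correction 3 of the 7, OCLN, CLDN12 and MARVELD2, were positive.

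The plaque protein ZO-1, encoded by TJP1 (chr15:29699367-29968865), was at 110, 110 and 132 CPM in shControl and at 63.6, 58.3 and 109 CPM in shNXN. The day 11 shNXN library lay just below the lowest shControl libraries. The log2 fold change was -0.61 (SE 0.25, edgeR adjusted p = 0.146; 0.0407 with the block). In FPKM the groups overlapped, at 23.0, 20.3 and 28.6 in shControl and 20.2, 16.1 and 24.0 in shNXN. There limma on log2(FPKM + 1) gave a difference of -0.25 (adjusted p = 0.429). After GC correction TJP1 was at -0.33 (edgeR adjusted p = 0.387). CGN, or cingulin, which links the plaque to the cytoskeleton, had 75.3, 85.0 and 97.0 CPM in shControl and 104, 110 and 115 CPM in shNXN. Those groups were also apart in CPM, with a log2 fold change of 0.36 that passed neither fit (edgeR adjusted p = 0.138; 0.0613 with the block).

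NECTIN3, a nectin that pairs with other nectins across the adherens junction, had the lowest log2 fold change of the 41 genes, at -2.15 (SE 0.47). Its level was 23.6, 30.0 and 25.2 CPM in shControl and 4.02, 3.06 and 10.7 CPM in shNXN, so that shNXN was lower on all 3 days, with log2 differences of -2.42, -3.10 and -1.20. It missed the threshold without the block (edgeR adjusted p = 0.0532) and passed with it (0.0257). The difference was smaller on the FPKM scale, where NECTIN3 had 15.2, 15.5 and 11.4 in shControl and 7.05, 4.72 and 7.39 in shNXN, and the length implied by count over FPKM was 1893 bases in shControl and 880 bases in shNXN on average. The nectins NECTIN1 and NECTIN2 had log2 fold changes of 0.14 and 0.29, the p120-catenin gene CTNND1 one of -0.18 and the afadin gene AFDN one of -0.11, and none of these 4 passed either edgeR fit (0 at an unadjusted p under 0.05 without the block). CTNNA1, the actin-linking catenin and the most abundant gene of its group, stood at 450, 476 and 552 CPM in shControl and 520, 558 and 615 CPM in shNXN, a log2 fold change of 0.20 (SE 0.13, edgeR adjusted p = 0.325).

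Of the cadherins, CDH1 differed between groups by less than the spread among libraries. It stood at 324, 393 and 323 CPM in shControl and 350, 347 and 319 CPM in shNXN, with a log2 fold change of -0.03 (SE 0.13, edgeR adjusted p = 0.87; 0.846 with the block). CDH2 was at 27.2, 23.3 and 41.3 CPM in shControl and 19.0, 21.4 and 35.3 CPM in shNXN. Its log2 fold change of -0.28 (SE 0.32) had an edgeR adjusted p of 0.55, and both groups were highest on day 11. VIM, with 345, 287 and 1228 CPM in shControl and 379, 420 and 1012 CPM in shNXN, had a log2 fold change of -0.04 (SE 0.62, edgeR adjusted p = 0.97). With the block it was 0.13 (SE 0.17, adjusted p = 0.562 from edgeR), of the opposite sign and with a smaller error. Of the 3 tested classical and kidney-type cadherins, CDH6 passed with the block, at 66.5, 47.01 and 78.0 CPM in shControl and 32.9, 29.4 and 56.4 CPM in shNXN (log2 fold change -0.69, SE 0.30, edgeR adjusted p = 0.159; 0.0328 with the block).

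DSC2, encoding the desmosomal cadherin desmocollin 2 (chr18:31058840-31102522), was at 50.9, 55.9 and 67.8 CPM in shControl and 33.5, 26.0 and 37.6 CPM in shNXN. The groups were apart, and the log2 fold change was -0.85 (SE 0.20, edgeR adjusted p = 0.0604; 0.0238 with the block). Its partner desmoglein 2 (DSG2) had a log2 fold change of -0.54 and passed neither fit (edgeR adjusted p = 0.123; 0.0528 with the block). The plaque genes DSP, PKP2 and PKP4 lay between -0.06 and -0.04, and PKP3 was at 0.58. JUP, plakoglobin, which serves both desmosomes and adherens junctions, stood at 730, 792 and 604 CPM in shControl and 908, 978 and 780 CPM in shNXN, a log2 fold change of 0.33 (SE 0.15, edgeR adjusted p = 0.179; 0.0513 with the block).

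None of the 5 polarity genes passed either edgeR fit or DESeq2, and 2 had an unadjusted p under 0.05 without the block. PARD6B, a scaffold of the Par complex, had the group's lowest value, with 15.1, 8.37 and 14.4 CPM in shControl and 9.19, 7.05 and 8.57 CPM in shNXN (log2 fold change -0.61, SE 0.28, edgeR adjusted p = 0.179). LLGL2, a basolateral Lgl protein, was at 267, 298 and 212 CPM in shControl and 285, 330 and 282 CPM in shNXN, a log2 fold change of 0.21 (edgeR adjusted p = 0.38). SCRIB and CRB3, the basolateral and apical determinants, had log2 fold changes of 0.38 and 0.34 with groups that did not overlap, and PARD3, a Par complex scaffold, was at 0.01.

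The lamins line the inner nuclear membrane, and all 3 had a positive log2 fold change. LMNB2 stood at 806, 717 and 762 CPM in shControl and 1277, 1352 and 1142 CPM in shNXN (log2 fold change 0.72, SE 0.12, edgeR adjusted p = 0.0452; 0.0187 with the block). The lowest shNXN library was thus well above the highest shControl library. After GC correction LMNB2 was at 0.34 (edgeR adjusted p = 0.243), and of the fits without 1 library its call too held only without shNXN of day 11. LMNA, encoding lamins A and C, was at 393, 488 and 490 CPM in shControl and 547, 746 and 608 CPM in shNXN, a log2 fold change of 0.47 (SE 0.16, edgeR adjusted p = 0.107; 0.0359 with the block). LMNB1 had a log2 fold change of 0.21 (edgeR adjusted p = 0.347). The cytoplasmic filament genes did not pass either edgeR fit: their log2 fold changes between groups were 0.18 for KRT8 (SE 0.43), 0.26 for KRT18 (SE 0.47), 0.25 for KRT19 (SE 0.27) and 0.06 for KRT7 (SE 0.42). With the block they were 0.30 (SE 0.18), 0.45 (SE 0.24), 0.29 (SE 0.16) and 0.17 (SE 0.25) in the same order.

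**Figure D2:**
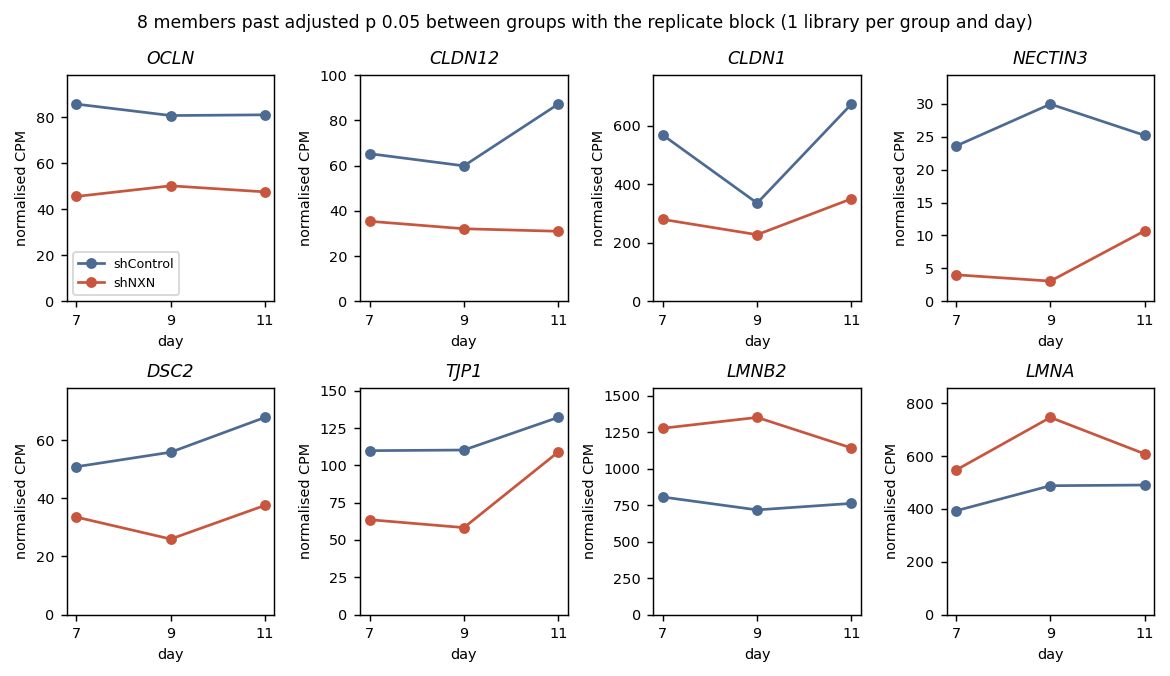
CPM by day (x axis) of 8 of the 9 genes with an adjusted p under 0.05 in the fit with the replicate block, one panel per gene, with shControl in blue and shNXN in red and each point 1 library. The lines lie apart on each day in all 8 panels, and those of NECTIN3 and TJP1 are closer on day 11 than on days 7 and 9.

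**Figure D3:**
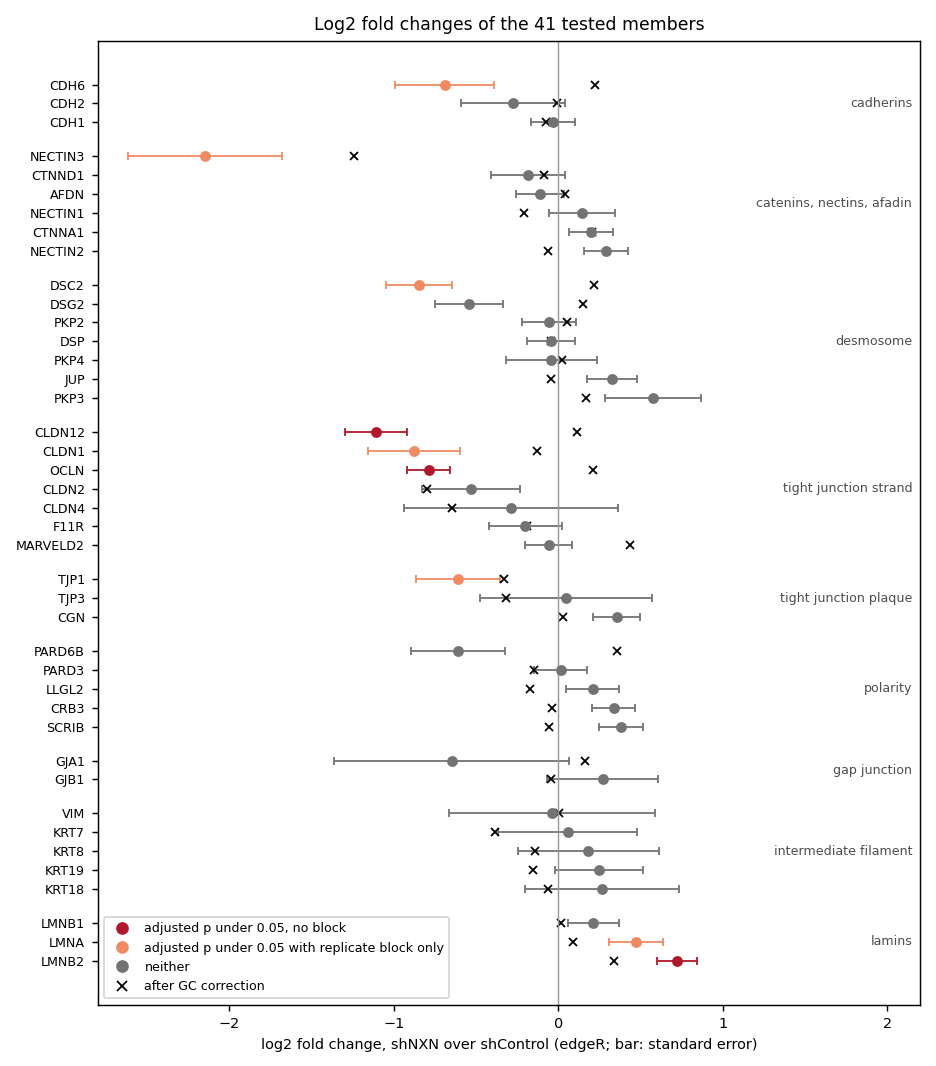
Log2 fold change (shNXN over shControl) of the 41 tested genes by role, with bars for the standard error, red where the adjusted p was under 0.05 without the block, orange where it was so with the block only, and a cross for the value after GC correction. NECTIN3 lies lowest at -2.15 and LMNB2 highest at 0.72, and in 31 of the 41 genes the cross lies nearer to 0 than the point.

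The listed genes differed in base composition, and their log2 fold changes followed it. Over the 41 genes Spearman's rho between log2 fold change and the GC content of the longest GENCODE 29 transcript was 0.86, and over 12740 features it was 0.79; genes share their libraries and are not replicates. All 12 genes with a GC content below 45%, a line drawn after the values were seen, had a negative log2 fold change, with a median of -0.67. Of the 29 others 10 were negative and 19 positive, with a median of 0.18. The tight junction strand genes had a median GC content of 43.5% and the lamins 61.4%. After each library's GC trend was removed, no listed gene passed (0 of 41 by edgeR, 4 at an unadjusted p under 0.05, background 0.0392%), nor with the block as well (0 of 41, 5 at an unadjusted p under 0.05, background 0.424%). With GC correction alone DSC2 stood at 0.22 and CDH6 at 0.23, so that with OCLN and CLDN12 4 of the 9 turned sign, as did 25 of the 41 genes in all. NECTIN3 kept a log2 fold change of -1.24 (edgeR adjusted p = 0.122). NXN passed with GC correction and with GC correction and block together. The correction removes whatever follows GC content, and the part that library preparation had in it was not tested.

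The call between groups also turned on single libraries. Without the day 11 shNXN library 8 of 43 tested genes passed, against 25.8% of features, and without any one of the other 5 libraries none did, against 1.73% of features without shControl of day 9 and none in the other 4 fits (edgeR; 8, 13 and 16 at an unadjusted p under 0.05 without shControl of day 7, 9 or 11, and 7 and 5 without shNXN of day 7 or 9). With days 7 and 9 alone, a choice made after seeing the data, 12 of 42 passed, against 31.8% of features. Of these, 7 were lower in shNXN (background 23.8%), and all 7 were also lower with the block over 3 days, a fit that includes the same libraries of days 7 and 9. The 5 that were higher (background 7.99%) were LMNB2, KRT18, KRT8, CRB3 and KRT19.

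Repressors of CDH1 were scarce at the RNA level. SNAI1, encoding Snail, stood at 2.56, 3.63 and 3.25 CPM in shControl and 5.29, 4.41 and 4.25 CPM in shNXN. The log2 fold change of SNAI1 was 0.56 (SE 0.26, edgeR adjusted p = 0.179; 0.145 with the block). By edgeR 0 of the 4 tested repressors passed without the block (2 at an unadjusted p under 0.05, and 2 by DESeq2), while with it TWIST1 passed as higher and SNAI2 and ZEB1 as lower, beside 23.3% of features. ZEB1 was at 4.33, 3.57 and 12.2 CPM in shControl and 1.89, 1.72 and 4.51 CPM in shNXN. TWIST1 was at most 1.28 CPM in any library. After GC correction 0 of the repressors passed by edgeR, against 0.0392% of features. Their median log2 fold change was -0.27 without the block and -0.0097 after GC correction.

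Of 143 further junction, polarity, filament and lamina genes listed from general knowledge, 140 were in the table and 83 were tested. By edgeR 0 passed without the block (33 at an unadjusted p under 0.05, or 39.8% against 32.9% of features, and 22 by DESeq2, which called 16% of features). With the block 6 were higher and 16 lower, 26.5% in all against 23.3% of features, with a median log2 fold change of 0.08 in the fit without the block. LIMA1, or EPLIN, which ties alpha-catenin to actin, had the smallest p of these, at 101, 108 and 113 CPM in shControl and 54.9, 57.1 and 76.2 CPM in shNXN (edgeR adjusted p = 0.0532; 0.0204 with the block). CXADR, a tight junction adhesion receptor, stood at 84.4, 55.1 and 97.5 CPM against 34.6, 25.4 and 42.2 CPM (log2 fold change -1.21, edgeR adjusted p = 0.057; 0.0142 with the block). DLG1, a basolateral scaffold that acts with SCRIB, was at 74.0, 73.5 and 72.4 CPM in shControl and 22.3, 17.2 and 43.2 CPM in shNXN, with an edgeR adjusted p of 0.0603 and 0.0269 with the block. After GC correction 0 of these further genes passed by edgeR, against 0.0392% of features. LIMA1 was then at 0.14 (edgeR adjusted p = 0.722), CXADR at -0.25 (0.573) and DLG1 at -0.43 (0.27). The lamina list had 15 tested genes, of which 2 were higher and 5 lower with the block, beside the same 23.3% of features. Named after their values were seen, ZMPSTE24, the protease that matures lamin A, had a log2 fold change of -1.37 (edgeR adjusted p = 0.0142 with the block) and SUN2, of the nuclear envelope bridge, one of 0.72 (0.0156). In the polarity list of 16 tested genes 1 was higher and 5 were lower with the block, again beside 23.3% of features.

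The second question was how these genes changed with day in culture. A linear trend in day, fitted with the group, gave no call among the 41 genes or any feature (background 0%, edgeR), while 12 of 41 had an unadjusted p under 0.05, against 10.7% of features. Of these 12, 11 had a positive slope, among them all 5 keratin and vimentin genes, and TJP3 had a negative slope. DESeq2 called VIM and KRT8 as rising with day (adjusted p = 0.0413 and 0.0446 by its Wald test), 2 of 46 genes against 0.418% of features. Day 11 against the mean of days 7 and 9 gave no call by edgeR either (background 0%), with 19 of 41 at an unadjusted p under 0.05 against 29.5% of features, 15 higher and 4 lower on day 11. With 1 library per group and day, day and culture cannot be told apart.

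The filament genes were highest on day 11 in both groups, and the steps were smaller in shNXN. VIM on day 11 was 3.89 times its mean of days 7 and 9 in shControl and 2.53 times in shNXN. KRT8 stood at 1595, 1631 and 4300 CPM in shControl and 2036, 2690 and 3816 CPM in shNXN, 2.67 and 1.61 times. KRT18, its partner in the filament, stood at 642, 585 and 1894 CPM in shControl and 927, 1184 and 1637 CPM in shNXN, 3.09 and 1.55 times. KRT19, a keratin of bile duct cells, was named after its values were seen; it stood at 363, 398 and 686 CPM in shControl and 464, 613 and 640 CPM in shNXN. In all 5 filament genes the day 11 multiple was the larger in shControl. Counted by size on the log2 scale, up or down, the day 11 change was the larger in shControl in 29 of the 41 genes. The same counts were not made over all features, so neither is shown to be particular to these genes. The linear slopes were 0.41 (SE 0.10) log2 per day for VIM, 0.30 (0.07) for KRT8 and 0.30 (0.08) for KRT18, each with an edgeR adjusted p of 0.453. Without the day 11 shControl library they were 0.25, 0.17 and 0.13, so that this library alone moved each by over 1.5 times. The ratio of VIM to KRT8, in FPKM, lay between 0.179 and 0.290 in every library, lowest on day 9 and highest on day 11 in both groups.

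GJA1, encoding connexin 43, stood at 159, 88.8 and 579 CPM in shControl and 134, 95.5 and 298 CPM in shNXN. Its day 11 level was 4.66 and 2.60 times the mean of the earlier days, and the log2 fold change between groups of -0.65 (SE 0.72) did not pass (edgeR adjusted p = 0.539). GJB1, the connexin 32 gene of hepatocytes, was at 0.469 and 0.678 times on day 11, and its log2 fold change between groups was 0.27 (SE 0.34). TJP3, encoding ZO-3, was named after its values were seen. Its level was 61.0, 74.7 and 20.5 CPM in shControl and 70.2, 64.5 and 26.7 CPM in shNXN. On day 11 it stood at 0.303 and 0.396 times the mean of the earlier days, which did not pass (edgeR adjusted p = 0.0548 for day 11).

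No listed gene passed the test of a difference in slope with day between groups (0 of 41 by edgeR and 0 by DESeq2, background 0%). CLDN4, named after its values were seen, was the 1 gene with an unadjusted p under 0.05, against 1.08% of features. CLDN4 stood at 2.95, 4.18 and 17.8 CPM in shControl and 6.57, 5.52 and 8.31 CPM in shNXN, so that it was lower in shControl on days 7 and 9 and higher on day 11. The slope difference was -0.57 log2 per day, and it was -1.01 without shControl of day 7, -0.19 without shControl of day 11 and -0.36 without shNXN of day 7, so that each of these libraries moved it by over 1.5 times.

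**Figure D4:**
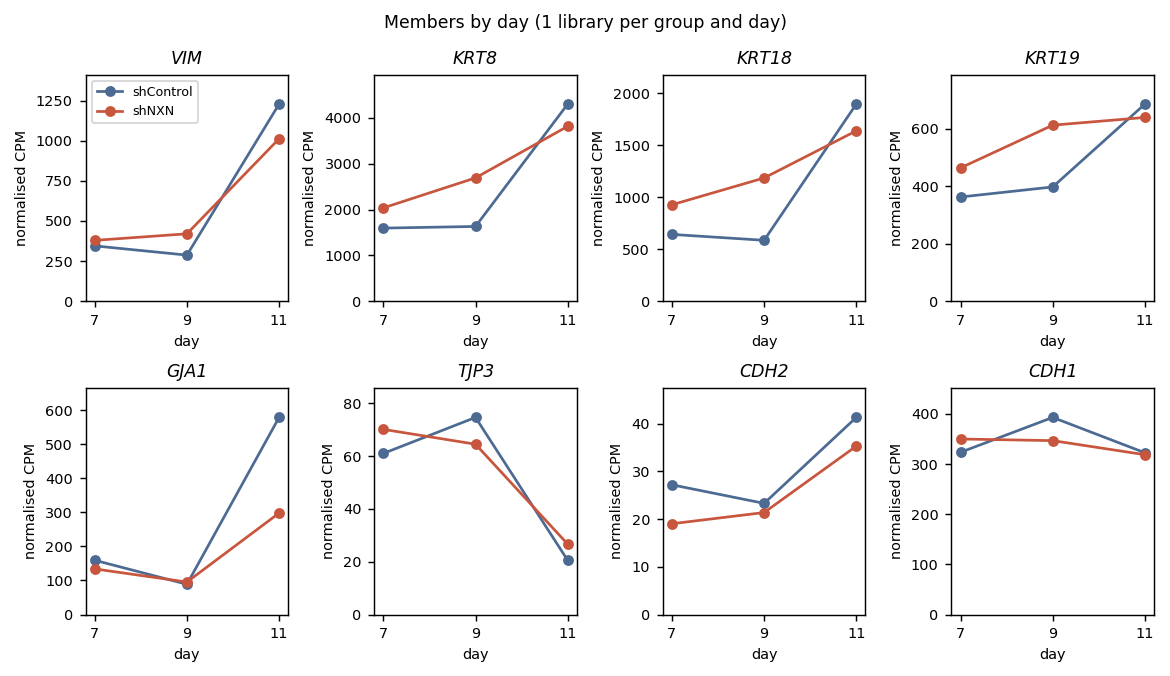
CPM by day (x axis) of VIM, KRT8, KRT18, KRT19, GJA1, TJP3, CDH2 and CDH1, with shControl in blue, shNXN in red and each point 1 library. VIM, KRT8, KRT18, KRT19, GJA1 and CDH2 are highest on day 11 in both groups and TJP3 lowest, while CDH1 stays between 319 and 393 CPM.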

How the data were processed

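Per the labels, mRNA libraries were made with a SMARTER kit from total RNA of Hep-3B cells. Estimated counts per feature, with 2 decimals, were deposited by the authors in 1 table and FPKM values (scaled to transcript length and library size) in another. Aligner, counter and annotation are not given in the sources used here, and the submitters' processing notes name the mouse builds GRCm38 and mm10, although 20314 features carry human Ensembl identifiers and 3092 are assembled loci. Estimated counts share reads among matching transcripts, so counts of paralogs such as keratins and claudins are uncertain, as are those of overlapping genes. The length behind each FPKM value differed between libraries. There were 0 columns without a sample.

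Groups and days were taken from the labels. The 47 genes and the other lists were chosen with earlier results of these data known. Counts were rounded, filtered (filterByExpr), scaled by TMM and tested with the quasi-likelihood test of edgeR 4.0.16 (R 4.3.3), with Benjamini-Hochberg adjustment over all 14071 features and a threshold of 0.05. The standard error is the log2 fold change over the square root of F. Models were group, group plus linear day, and their interaction. Replicate numbers follow the day in the labels, and the block pairs libraries by them. Deviations from group means correlated at 0.304, 0.309 and 0.451 on the same day and at -0.368 to 0.148 between days. Between days 7 and 9 they were positive, at 0.148 and 0.106. Centring each group on its own mean ties these values together by construction, so they do not show that libraries were paired in culture. Alternatives were DESeq2 1.42.0, RLE factors, no filter beyond 1 count, limma 3.58.1 on log2(FPKM + 1) and log2(FPKM + 0.1), the replicate block, GC correction (natural spline with 5 degrees of freedom per library, on features with a GENCODE 29 transcript), and each library left out. Days 7 and 9 alone were added after seeing the data.

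Named with all values were genes with an adjusted p under 0.05 (with or without the block), CDH1, CDH2 and VIM, and in each of 9 roles the gene with the highest mean FPKM and that with the largest log2 fold change. Of further pathway genes, those past 0.05, or else the 3 with the smallest p, were named. GJB1, KRT7, KRT19, TJP3, CLDN4 and other genes given by 1 value were named after their values were seen. On simulated data the group test found 29.3% of genes changed by 1 on the log2 scale and 85.7% of those changed by 2, with 0 false calls. The simulated counts were drawn gene by gene, without a GC trend or a shared day effect. They therefore do not give the rate of false calls in the real libraries.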

Additional observations from a re-analysis of the deposited data

Results flagged for a closer look

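The order of the groups changed with the day for all 5 filament genes, and the difference is given here as values only. Other listed genes, CLDN4 among them, also changed order. VIM differed (shNXN minus shControl, log2 CPM) by 0.14 on day 7, 0.55 on day 9 and -0.28 on day 11. For KRT8 the differences were 0.35, 0.72 and -0.17, and for KRT18 they were 0.53, 1.02 and -0.21. KRT19 differed by 0.36, 0.62 and -0.10 and KRT7 by 0.32, 0.59 and -0.41 on the same days. Each day held 1 library per group, so these reversals on single days were not tested. None of these genes passed edgeR's test of a difference in slope with day. Groups of 3 were not tested for outlying libraries.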

How the results depend on the processing

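At 1 line and 3 libraries a group, the test missed most changes of 1 on the log2 scale in simulation, so a gene that did not pass is not shown to be equal. Over all features the 477 calls between groups became 3106 with DESeq2, 826 with RLE factors, 818 without a filter, 287 and 66 with limma on log2(FPKM + 1) and log2(FPKM + 0.1), 5 with GC correction, 4519 with days 7 and 9 alone, and 0 to 3706 with a library left out (248 without shControl of day 9, 3706 without shNXN of day 11 and 0 without any of the other 4). The 3 listed genes called became 6 with DESeq2, 0 on either FPKM scale, 0 with GC correction, 12 with days 7 and 9 alone, and 0 to 8 with a library left out. They became 4 with RLE factors or without a filter. At 0 the unadjusted p was under 0.05 for 13 and 12 genes on the FPKM scales. Of the 41 listed genes, 31 had a smaller log2 fold change in size after GC correction. For change with day, 0 features became 81 with DESeq2, and the 0 listed genes became 2. For the difference in slope, 0 became 1 without a filter and 0 to 12 with a library left out (12, 5 and 5 without shControl of day 7, 9 and 11).

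The replicate block, which pairs libraries of the same day, raised the 477 calls to 3272 and the 3 listed genes to 9. With block and GC correction together there were 54 calls and 0 listed genes, and with the block on days 7 and 9 alone 5250 and 16. The block did not lose any of the 3 calls among the listed genes.

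Some log2 fold changes turned sign. With GC correction, and then with the block and GC correction, they were 0.21 and 0.17 for OCLN, 0.11 and 0.063 for CLDN12, 0.22 and 0.21 for DSC2, 0.23 and 0.24 for CDH6, 0.00489 and 0.23 for VIM, 0.16 and 0.50 for GJA1, 0.36 and 0.36 for PARD6B, 0.14 and 0.13 for LIMA1, -0.0463 and -0.0455 for JUP, -0.17 and -0.17 for LLGL2, and -0.14 and -0.0264 for KRT8. KRT18 was at -0.0612 with GC correction and CDH2 at 0.0088 with the block and GC correction. On the FPKM scales, with pseudocounts of 1 and 0.1, CLDN12 was at 0.40 and 0.41, CDH1 at 0.18 and 0.18, and VIM at 0.45 and 0.45. The FPKM values were not rescaled between libraries. They summed to 631135 to 678216 in shControl and to 688017 to 774345 in shNXN, and the part this had was not tested. CDH1 was at 0.0102 without a filter. VIM was at 0.13 with the block, 0.34 with days 7 and 9 alone, and 0.34 with the block on those days. With a library left out, ranges that crossed 0 were -0.0543 to 0.097 for CDH1, -0.60 to 0.0483 for CDH2, -0.63 to 0.97 for VIM, -1.27 to 0.54 for GJA1, -0.0861 to 0.87 for KRT8 and -0.0182 to 1.08 for KRT18. Of the single-gene values under an alternative, 335 kept direction and side of the threshold, 56 newly passed, 25 no longer passed and 45 turned. The cause was not tested, beyond what each construction shows.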
